A study of Mus musculus with 24 samples.

Results

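The genes described here encode the proteins of the mitochondrial ribosome in mouse retinal organoids (MROs). They were chosen by symbol: every protein-coding gene of the deposited counts whose symbol starts with Mrpl or Mrps followed by a digit, with 5 pseudogenes left out. This gave 78 genes, 49 Mrpl and 29 Mrps, of the 126602 features counted, among which 21547 are protein-coding genes with a symbol. The study followed MROs, which are retinal tissue aggregates grown from mouse embryonic stem cells of the line E14TG2a, over the late part of their culture. Each of 24 libraries held the total RNA of a single organoid, with 6 organoids at each timepoint, which were D20, D22, D25 and D30 (days of culture), all from 1 independent experiment. All organoids carried the control genotype, all had only the solvent water added, and all had been exposed to the retinoid analog EC23 at an earlier stage of the culture. No other genotype or treatment entered the comparisons, so each comparison is between ages of the same kind of organoid. The 6 organoids of a timepoint were separate aggregates of 1 culture experiment, and p-values measure the spread between such organoids only.

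Mitochondria keep a small genome of their own, which encodes subunits of the respiratory chain, ribosomal RNAs and transfer RNAs. Every protein of the ribosome that translates those messages is encoded in the nucleus, made in the cytosol and imported. The large subunit joins the amino acids and holds the exit tunnel at the inner membrane, and the small subunit reads the messenger RNA. Many of these proteins descend from bacterial ribosomal proteins, and others have no bacterial counterpart. The photoreceptor, a main cell type of the retina, packs its inner segment with mitochondria and is known for its high oxygen use.

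Between 13634846 and 19477108 reads were assigned per organoid, so that 3 counts corresponded to between 0.154 and 0.22 CPM (counts scaled to the library total). This limit covers counting error only, and no pair of libraries agreed within counting noise. Of the markers fixed for the retina, all 5 of photoreceptors exceeded the 3-count level at each timepoint, whereas 4 of 5 bipolar markers did at D20 (Grm6 did not) and 3 of 4 horizontal markers at D22. The photoreceptor markers' summed level had medians of 832, 1300, 2180 and 3100 normalised CPM from D20 to D30. The Müller glia markers had medians of 306, 310, 500 and 1120. The markers of progenitors and cycling cells had medians of 1070, 516, 469 and 280, and ranged from 711 to 1200 at D20 and from 249 to 435 at D30. Markers of forebrain ranged from 4.55 to 170 at D20 and from 7.98 to 216 at D30, so that organoids of the same age differed in them, and Cx3cr1, a microglia marker, was at 0 in every organoid of D20, D22 and D25. In whole organoids, fewer cells of a type and less RNA per cell cannot be told apart. The part of these cell-type shifts in the results below was not tested.

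With all features in the scaling, the summed level of the mitochondrial ribosomal protein genes differed by less between D20 and D30 than between organoids of the same age. Their summed level, in CPM normalised with TMM (trimmed mean of M-values, a scaling of library size), was 2188 ± 132 (SD, n = 6) in the D20 organoids, 2070 ± 124 at D22 and 2184 ± 166 at D25, with 2146 ± 158 at the last timepoint, D30. Single organoids ranged from 2097 to 2436 at D20 and from 1971 to 2354 at D30, and the timepoints overlapped throughout. The Mrpl genes summed to 1352 ± 87.2 at D20 and 1316 ± 101 at D30, and the Mrps genes to 836 ± 47.8 and 830 ± 60.6. When the scaling was set on annotated genes alone, leaving out the loci that the authors assembled from the reads, the sum was 2566 ± 112 at D20 and 2367 ± 155 at D30, and in CPM without TMM it was 2207 ± 111 and 2021 ± 119. On both of these scales the mean was lower at D30 by more than the SD, and the sum carries no test. The 78 genes took 0.256% ± 0.0122 of the reads on annotated genes at D20 and 0.24% ± 0.0132 at D30.

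The proteins of the cytosolic ribosome, which translates the messages of the nucleus, took another course. The summed level of their 85 genes was 28730 ± 3040 normalised CPM at D20 and 20830 ± 5160 at D22, then 13940 ± 2001 at D25 and 12380 ± 1324 by D30. The organoids of D20 lay between 24600 and 31690 and those of D30 between 10570 and 14410, without overlap. Of the 82 cytosolic genes tested, 75 fell and none rose from D20 to D30, with a median log2 fold change of -1.15, against a median of 0.02 for the 77 mitochondrial genes tested. The medians over all tested features and over annotated genes were -0.04 and 0.10. In the same comparison 13% of all features fell and 13.9% rose, and of annotated genes 16.7% fell and 25.1% rose.

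**Figure D1:**
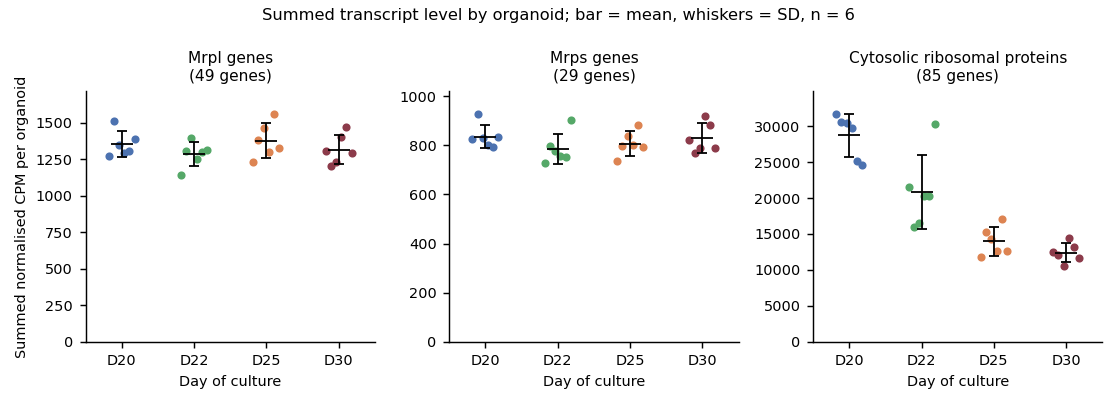
Summed transcript level (normalised CPM, linear axis from 0) of the Mrpl genes, the Mrps genes and the cytosolic ribosomal protein genes in each organoid by day of culture; points are organoids, bars are means and whiskers SD (n = 6). The Mrpl and Mrps sums overlap at all 4 timepoints, whereas the cytosolic sum goes from a mean of 28730 at D20 to 12380 at D30.

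Within the family, levels per kilobase of exon (normalised CPM divided by the summed length of all annotated exons) spanned a wide range. The median tested member stood at 8.8 normalised CPM per kb. The highest levels per kb were those of Mrps21 (48.6), which encodes a small-subunit protein with a bacterial counterpart, of Mrpl49 (46) and of Mrpl41 (37.8), both proteins of the large subunit that bacteria lack. Mrps21 lies on chromosome 3 at 95862634-95871519 (GRCm38), minus strand, and had 27.8, 33.1 and 34.6 normalised CPM as the lowest, median and highest organoid at D20 and 36.4, 37.7 and 44 at D30. The D30 organoids were all above those of D20, but the difference of 0.25 on the log2 scale did not pass the test (SE 0.12, edgeR adjusted p = 0.116). Mrpl41 had 26.5 ± 5.98 normalised CPM at D20, 40.6 ± 6.43 at D25 and 35.1 ± 3.06 at D30 (D30 against D20, adjusted p = 0.0394).

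At the other end stood Mrpl53, with 0.345 normalised CPM per kb, Mrps18b with 2.06 and Mrpl23 with 2.66. Mrpl53, a large-subunit protein, averaged 4.25 counts per organoid, was under the minimum of 10 normalised counts and was the only member not tested. Its gene on chromosome 6 (83109040-83109939, plus strand) overlaps Gm42688 on the same strand and Ccdc142os on the other. Reads that the counting called ambiguous between features, 139485 to 187398 per organoid, were left out of the counts. In all, 42 of the 78 members overlap another annotated gene, 13 on their own strand and 36 on the other, and the strand setting of the counting is not given in the sources used here.

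From 1 timepoint to the next, hardly any member passed the test. The test was the quasi-likelihood test of edgeR over all 46949 features kept, with Benjamini-Hochberg adjustment and a threshold of 0.01. Between D20 and D22 no member rose or fell, with edgeR or with DESeq2. An unadjusted p under 0.05 was found for 10 of 77 members, 8376 of the 46949 features and 4047 of 16253 annotated genes. The background was 1.62% of all features higher and 0.285% lower, or 3.32% of annotated genes in either direction. The median member stood 0.12 lower at D22 on the log2 scale, and 54 of 77 were below 0. Annotated genes had a median of -0.058 in this step, with 9455 of 16253 below 0. Between D22 and D25 again none rose or fell with either tool, against a background of 3.08% higher, 2.19% lower and 10.2% of annotated genes. Here 17 members had an unadjusted p under 0.05, as did 11370 of all features and 5911 of annotated genes. The median member was 0.14 higher at D25, and 58 of 77 were above 0. Annotated genes had a median of 0.096 here, with 9763 of 16253 above 0. Both steps contain the same D22 organoids. A fit of annotated genes only changes the scaling, the features tested and the adjustment together. In it the medians of the members were -0.06 and 0.06, and 1 member was lower at D25.

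Between D25 and D30, Mrps25 was the only member past the threshold and none fell. Mrps25, a protein of the small subunit without a bacterial counterpart, had 67.9, 81.1 and 93.9 normalised CPM as the lowest, median and highest organoid at D25 and 87.1, 112 and 124 at D30. Its gene overlaps Nr2c2 on the other strand. The organoids of the timepoints overlapped, with 2 of the D30 organoids inside the D25 range, and the log2 fold change was 0.41 (adjusted p = 0.00927). This call was lost when any of 14 organoids was left out (D20 organoids 3, 4 and 6, D22 organoids 2 and 3, D25 organoids 1, 2, 4, 5 and 6, and D30 organoids 3, 4, 5 and 6, adjusted p up to 0.0296) and under 5 other settings. The background was 1.76% of features higher, 1.75% lower and 7.38% of annotated genes. An unadjusted p under 0.05 was found for 8 members, 8420 of 46949 features and 4695 of 16253 annotated genes.

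Over the whole interval from D20 to D30, 13 of 77 tested members passed the threshold (16.9%), 4 higher and 9 lower. An unadjusted p under 0.05 was found for 31 members, 21395 of 46949 features and 9785 of 16253 annotated genes. The background was 26.8% of all features, 13.9% higher and 13% lower. Of annotated genes, 41.8% passed, 25.1% higher and 16.7% lower. Of the 10144 annotated genes with a mean count in the range of the tested members, the members included, 44.5% passed. Whether the members were called at another rate than such genes was not tested. The split of 4 higher and 9 lower was 9 and 8 with DESeq2, 9 and 6 with DESeq2's size factors in edgeR, and 4 and 14 when only annotated genes were fitted. Without D20 organoid 2 there were 7 members higher. Of the 13 members, 9 passed the threshold in all 31 alternatives tried, which include the omission of each organoid in turn.

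The sizes of the differences were small as well. The log2 fold changes of the 77 members from D20 to D30 ranged from -0.88 to 0.70, with an SD of 0.326 across members, and 63.6% of members stayed within 1.25-fold. Among the annotated genes of like depth the SD was 1.08 and 37.2% stayed within 1.25-fold. The quartiles of the members were -0.22 and 0.22, and those of the cytosolic ribosomal protein genes -1.41 and -0.97. For 68 members the highest timepoint mean was under 1.5 times the lowest. The 95% interval of the D30 to D20 difference reached a median of 0.28 to either side on the log2 scale, with a smallest reach of 0.17 and a largest of 0.61. Of the 64 members not past the threshold, the interval of all 64 stayed within 2-fold of no change and that of 46 within 1.5-fold. Within a timepoint the coefficient of variation between organoids had a median of 14.2% over the members.

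**Figure D2:**
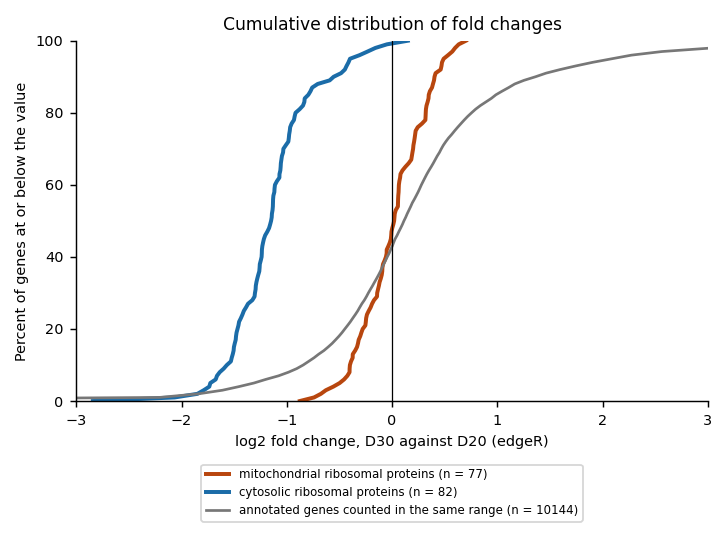
Cumulative distribution of log2 fold changes from D20 to D30 (horizontal axis; values beyond 3 in either direction lie outside the axis) for the 77 tested mitochondrial ribosomal protein genes, 82 cytosolic ribosomal protein genes and 10144 annotated genes of like count. The mitochondrial curve is steep around a median of 0.02, the cytosolic curve is centred at -1.15 and that of the annotated genes is wider.

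Among the large-subunit proteins with a bacterial counterpart, 3 of 29 fell and none rose (10.3%), with a median of -0.08. In the same comparison 26.8% of all features and 41.8% of annotated genes passed. Mrpl23 encodes a protein beside the exit tunnel of the large subunit, and its gene lies on chromosome 7 at 142532686-142540747, plus strand. The lowest, median and highest organoid had 14.9, 17.8 and 21.4 normalised CPM at D20 and 9.0, 12.3 and 17.1 at D22, followed by 7.81, 12.2 and 14.9 at D25 and 8.37, 9.55 and 11.6 at D30. Every D30 organoid lay below every D20 organoid, and the D22 organoids overlapped both. The log2 fold change of -0.88 (SE 0.17, adjusted p = 0.00013) was the largest fall in the family.

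Mrpl34, which encodes a very small protein of the large subunit, had 13, 14.8 and 19.4 normalised CPM at D20 and 7.94, 9.58 and 10.2 at D30, without overlap. Its log2 fold change was -0.70 (SE 0.15, adjusted p = 0.000355). Mrpl15, a large-subunit protein, had 37.6, 43.2 and 46.9 normalised CPM at D20, 35.1, 37.3 and 39.8 at D25 and 27, 29.4 and 35.1 at D30. Its D30 organoids were all below those of D20, with a log2 fold change of -0.48 (SE 0.095, adjusted p = 0.000145), and its mean at D22 (43.2 ± 3.99) was that of D20 (42.6 ± 3.88). Its gene overlaps Gm37144 on the same strand.

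Of the 21 tested large-subunit members without a bacterial counterpart, 2 rose and 3 fell (23.8%), with a median of 0.02. The background was 26.8% of all features and 41.8% of annotated genes. Mrpl39 (chromosome 16, 84717576-84735742, minus strand) encodes a large-subunit protein related to threonyl-tRNA synthetase. Its lowest, median and highest organoid had 85.2, 101 and 108 normalised CPM at D20 and 64.4, 75.4 and 83.1 at D30. The groups did not overlap, and the log2 fold change was -0.40 (SE 0.10, adjusted p = 0.00226). Mrpl50 had 60.6 ± 6.15 normalised CPM at D20 and 45.8 ± 3.67 at D30, again without overlap (log2 fold change -0.40, adjusted p = 0.00134, and 0.0121 without a filter). Mrps30 carries a small-subunit symbol, but its protein sits in the large subunit, and its gene overlaps B430218F22Rik on the other strand. It had 59.2 ± 6.43 normalised CPM at D20 and 44.9 ± 5.91 at D30 (log2 fold change -0.40, adjusted p = 0.00399), the organoids overlapped, and the call was lost without any of D20 organoids 1 and 2 or D30 organoids 1, 2 and 3 (adjusted p up to 0.0142). It was also lost with DESeq2 (0.0126), its size factors in edgeR (0.0147), no filter (0.0144) and the compared timepoints only (0.011).

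Mrpl54 and Mrpl55 rose, both large-subunit proteins with levels per kb (25.1 and 12.2 normalised CPM) above that of the median member. Mrpl55 had 7.06, 9.69 and 12.4 normalised CPM as the lowest, median and highest organoid at D20 and 11.5, 15.8 and 19.4 at D30, with 1 D30 organoid inside the D20 range. Its log2 fold change of 0.70 (SE 0.17, adjusted p = 0.00168) was the largest rise in the family. Mrpl54 had 13.1, 15.6 and 21.8 normalised CPM at D20, 17.2, 22.4 and 28.3 at D25 and 19.9, 24.6 and 29.1 at D30. The D20 and D30 organoids overlapped, and the log2 fold change was 0.59 (SE 0.14, adjusted p = 0.00133).

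Mrpl49 passed the joint test of the 4 timepoints and not the test of D30 against D20. Its lowest, median and highest organoid had 65.5, 74.4 and 85.5 normalised CPM at D20 and 79.2, 84.7 and 120 at D22, followed by 81.6, 104 and 116 at D25 and 57.7, 77.5 and 99.9 at D30. The level was highest at D25 and at D30 overlapped all other timepoints (joint adjusted p = 0.00723, D30 against D20 0.07, adjusted p = 0.715). Its joint call was lost when any of 13 of the 24 organoids was left out, with adjusted p up to 0.028: D20 organoids 1, 3, 4, 5 and 6, D22 organoids 1, 2 and 4, D25 organoids 2, 3 and 5, and D30 organoids 1 and 4. The joint test called 13 members (16.9%) against 27.2% of features and 43.9% of annotated genes, and 11 of these were also called between D20 and D30. The other member called by the joint test alone was Mrpl27, a large-subunit protein with a bacterial counterpart, at 11.2 ± 1.63 normalised CPM at D20 and 15.5 ± 2.79 at D30 (joint adjusted p = 0.00904, D30 against D20 0.47, adjusted p = 0.0105). That joint call was lost without any of 17 organoids (adjusted p up to 0.0278). Without D20 organoid 3 alone, the joint test called 8 members. Mrps33 and Mrps30 were called between D20 and D30 and not by the joint test.

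Among the small-subunit proteins with a bacterial counterpart, 1 of 16 rose and 2 fell (18.8%), with a median of 0.07. The background was again 26.8% of all features and 41.8% of annotated genes. Mrps5 (chromosome 2, 127587222-127606829, plus strand), a protein at the messenger RNA entry of the small subunit, was the most deeply counted member, with a mean of 1431 counts per organoid. Its lowest, median and highest organoid had 96.9, 110 and 120 normalised CPM at D20 and 86.1, 94.5 and 107 at D22, followed by 76.7, 89.6 and 97.2 at D25 and 69.1, 72.1 and 87 at D30. The D30 organoids were all below those of D20, and the median was lower at each later timepoint. The log2 fold change was -0.56 (SE 0.086, adjusted p = 4.27e-06), the smallest p of the family.

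Mrps9 encodes a protein in the head of the small subunit, and its gene overlaps Gm23126 on the other strand. It had 62.4 ± 5.72 normalised CPM at D20 and 62.7 ± 3.65 at D22, against 51.3 ± 3.59 at D25 and 48.1 ± 6.05 at D30. Neighbouring timepoints differed most between D22 and D25, where the difference did not pass the test, D20 and D30 overlapped, and the D20 to D30 log2 fold change was -0.37 (adjusted p = 0.00161). This call was lost with DESeq2's size factors (0.0104), without a filter (0.0178) and with the compared timepoints only (0.0137). Mrps11 (chromosome 7, 78783119-78792989, plus strand), a protein of the small-subunit platform, went the other way. Its lowest, median and highest organoid had 10.4, 14.7 and 17.6 normalised CPM at D20 and 10.9, 14.9 and 18 at D22, followed by 14.3, 20.1 and 22.1 at D25 and 19.2, 22.2 and 27.8 at D30. All D30 organoids were above all D20 organoids (log2 fold change 0.61, SE 0.15, adjusted p = 0.00139), and Mrps11 overlaps Mrpl46 on the other strand.

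Of the small-subunit members without a bacterial counterpart, 1 of 10 rose and 1 fell (20%), with a median of 0.14. Beside this stand 26.8% of all features and 41.8% of annotated genes. Mrps25 had 69, 75.2 and 88 normalised CPM as the lowest, median and highest organoid at D20, and 79.1 ± 7.92 on average at D22, close to D20 and D25. From D20 to D30 it rose by 0.47 on the log2 scale (SE 0.10, adjusted p = 0.000443), with 1 D30 organoid inside the D20 range. Mrps33 had 15.1, 18.4 and 20.8 normalised CPM at D20 and 9.07, 11.5 and 13.4 at D30. Its D30 organoids were all below those of D20 (log2 fold change -0.66, SE 0.18, adjusted p = 0.00537), but the call was lost without any of D20 organoids 1, 2 and 5 or D30 organoids 5 and 6 (adjusted p up to 0.0156) and with the replicate number as a block (adjusted p = 0.0107) or DESeq2's size factors (0.012).

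**Figure D3:**
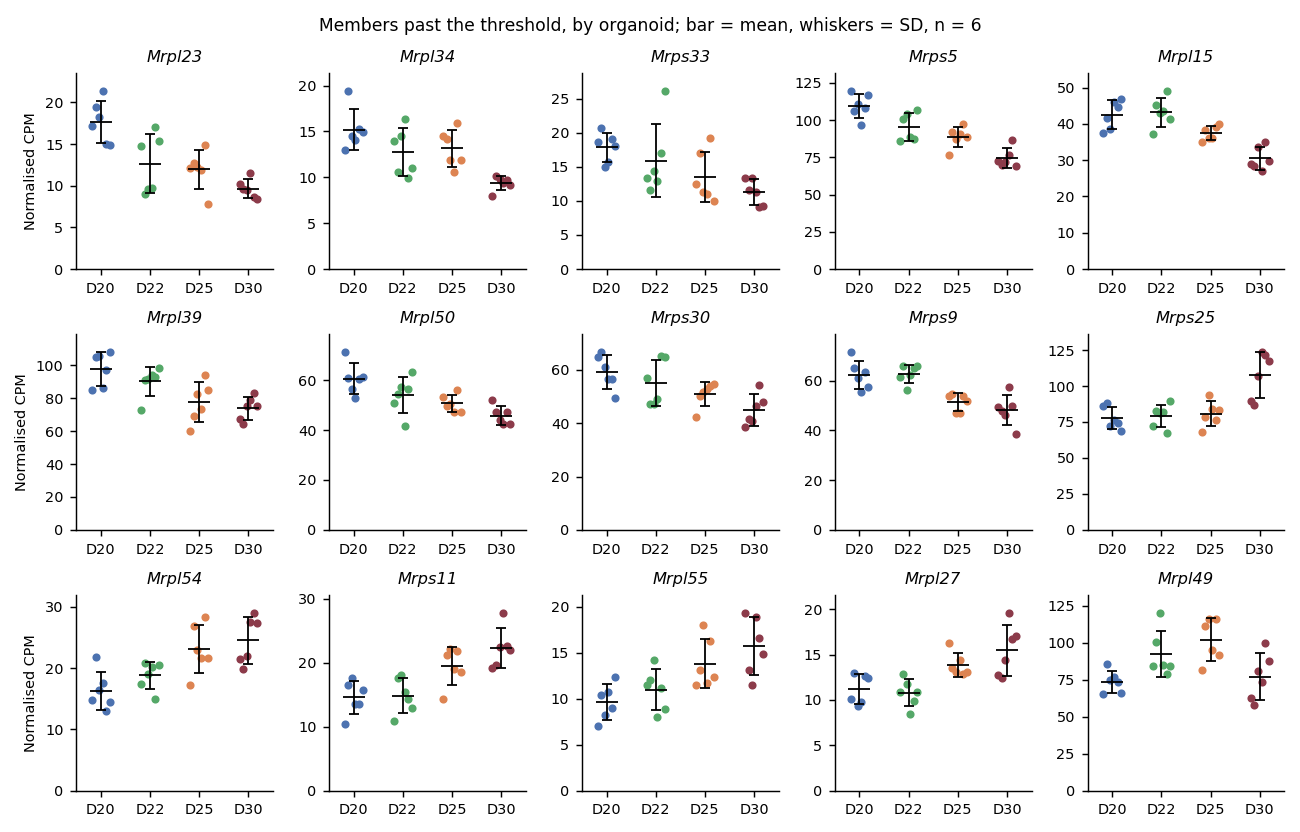
Normalised CPM (linear axes from 0) of the 13 members called between D20 and D30 and of Mrpl27 and Mrpl49, called by the joint test alone, in each organoid; bars are means and whiskers SD (n = 6). Mrpl23 goes from a mean of 17.7 at D20 to 9.65 at D30, Mrps11 from 14.6 to 22.3, and Mrpl49 is highest at D25.

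In total, 2 members had all D30 organoids above all D20 organoids and 7 had them all below, against 9.6% of features above and 9.34% below. Both of the higher ones and all of the lower ones have been named: Mrps11 and Mrps21, and Mrpl15, Mrpl23, Mrpl34, Mrpl39, Mrpl50, Mrps5 and Mrps33. The summed progenitor and cycling markers were also lower at D30 than at D20, as the 9 members that fell were. By D22 the marker median was already down, with 516 against 1070 in the D20 organoids. Mrpl23, Mrpl34, Mrpl39, Mrpl50, Mrps5, Mrps30 and Mrps33 likewise had lower means at D22 than at D20. The means of Mrpl15 and Mrps9 were not lower at D22, so the courses were not all alike. No member passed the test between D20 and D22. The part of progenitors and cycling cells in the falls of the 9 members was not tested.

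**Figure D4:**
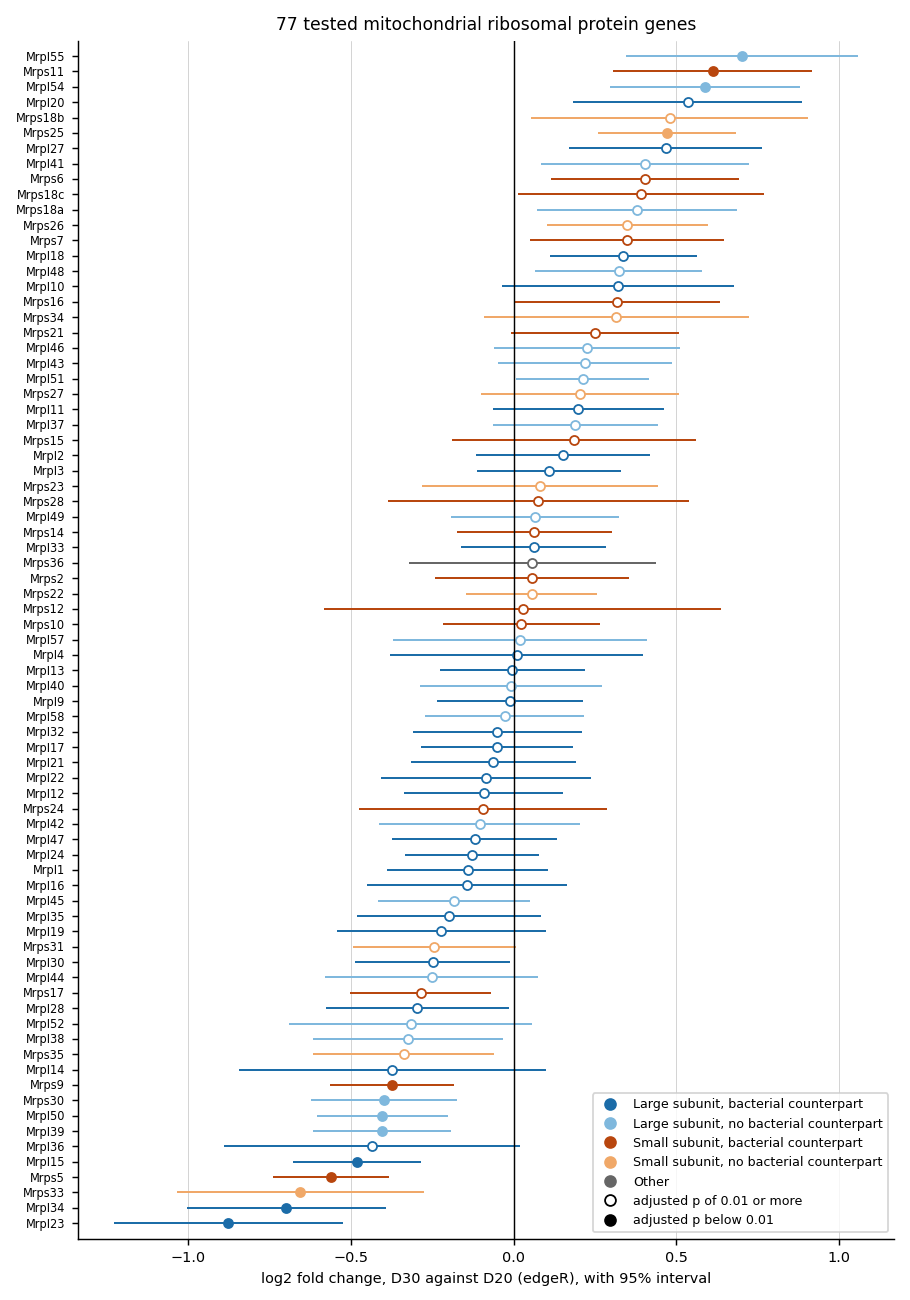
Log2 fold change from D20 to D30 with its 95% interval for each of the 77 tested members, sorted by size and coloured by subunit and bacterial counterpart; filled points passed the threshold of 0.01. The values run from -0.88 (Mrpl23) to 0.70 (Mrpl55), and the 4 filled points on the right and 9 on the left come from both subunits.

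Several other members with a known extra role were chosen for description whatever their result, and those in this paragraph did not pass the test between D20 and D30. Mrpl12, which also binds the mitochondrial RNA polymerase, had 37.1 ± 5.12 normalised CPM at D20 and 34.8 ± 6.91 at D30 (log2 fold change -0.09, 95% interval -0.33 to 0.15). Mrpl58, a peptidyl-tRNA hydrolase that rescues stalled ribosomes, had 33.6 ± 3.88 and 32.9 ± 2.02 (-0.03, interval -0.27 to 0.21). Mrpl44, which resembles a ribonuclease, had 13.2 ± 2.47 and 11.1 ± 2.5 (-0.25, interval -0.58 to 0.07). For all of these the interval excluded a change of 1.5-fold. Mrpl45, which ties the ribosome to the inner membrane, had 36.4 ± 4.27 and 32.1 ± 4.92 normalised CPM (-0.18, interval -0.41 to 0.05), and Mrpl47, beside the exit tunnel, had 25.8 ± 4.53 and 23.7 ± 1.56 (-0.12, interval -0.37 to 0.13). Mrps36, whose product is now assigned to the 2-oxoglutarate dehydrogenase complex rather than the ribosome, had 10.3 ± 2.93 and 10.8 ± 1.67 (0.06, interval -0.32 to 0.43).

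The 3 relatives of ribosomal protein S18, of which Mrps18a sits in the large subunit and Mrps18b and Mrps18c in the small, stood at different levels. Only Mrps18c was grouped above with the members that have a bacterial counterpart. Per kb of exon, Mrps18c had 11.4 normalised CPM, Mrps18a 4.53 and Mrps18b 2.06. From D20 to D30 their log2 fold changes were 0.38 for Mrps18a (adjusted p = 0.0443), 0.48 for Mrps18b (adjusted p = 0.068) and 0.39 for Mrps18c (adjusted p = 0.0949). None passed the threshold, and the organoids of D20 and D30 overlapped for each.

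The other genes of mitochondrial gene expression came from 6 lists. The counts of each stand against the 26.8% of all features and 41.8% of annotated genes called in the same comparison. Of 5 ribosomal proteins with other symbols, only Gadd45gip1 passed the test. Gadd45gip1, a large-subunit protein also known as Crif1, fell from 45.6 ± 3.83 normalised CPM at D20 to 24.6 ± 6.34 at D30 (log2 fold change -0.89, adjusted p = 7.55e-06). Of 26 ribosome assembly factors, 3 rose and 2 fell (19.2%) with a median of -0.05. The risers were the ribosomal RNA methyltransferases Nsun4 (0.74) and Trmt2b (0.77) and the pseudouridine synthase Trub2 (0.74, adjusted p = 1.63e-06), and the fallers were the ribosomal RNA methyltransferase Mrm1 (-1.10) and the GTPase Gtpbp10 (-0.54).

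Of 13 translation factors, the initiation factor Mtif3 (0.48) and the elongation factor Gfm1 (0.46) rose and the release factor Mtrf1l fell (-0.55). Of 17 mitochondrial aminoacyl-tRNA synthetases, Cars2 (1.27) and Hars2 (0.48) rose and Ears2 fell (-0.53, adjusted p = 0.00506). The medians of these lists were -0.05 and 0.06. Of 13 genes for transcription, replication and messenger RNA binding in mitochondria, 1 rose and 4 fell (38.5%, near the share of annotated genes), with a median of -0.12.

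These 5 genes were named after their values had been seen, apart from the largest rise and fall. Polg2, the accessory subunit of the mitochondrial DNA polymerase, rose from 15.4 ± 1.5 normalised CPM at D20 to 41.7 ± 8.35 at D30 (log2 fold change 1.44, adjusted p = 1.42e-10). The helicase Twnk fell from 42.8 ± 7.45 to 23.7 ± 3.29 (-0.85, adjusted p = 7.12e-06). The DNA-binding proteins Ssbp1 (-0.62, adjusted p = 3.69e-06) and Tfam (-0.50, adjusted p = 3.17e-05) and the protease Lonp1 (-0.54) fell as well. Polg, the catalytic subunit of the same polymerase, had 43.9 ± 4.83 normalised CPM at D20 and 45 ± 4.2 at D30 and did not pass (0.03, adjusted p = 0.833). The 13 messenger RNAs of the mitochondrial genome, the messages that these ribosomes translate, are listed at 0 in every file, so that the ribosomal protein genes could not be set beside them.

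The sequences around the starts of the members were searched for features that the choice by symbol did not use. RefSeq promoters of 300 bases (GRCm38.p6) were matched by symbol for 69 of the 78 members and searched on both strands. A symbol counted as matched when any of its promoters held the letters, and some symbols have several promoters. The core of ETS factors such as GABPA, CCGGAAG, was found in 26 (37.7%), against 13.4% of 16522 protein-coding genes and 9.93% of all 27025 symbols. The YY1 core AAGATGGC was found in 12 (17.4%), against 3.64% and 3.19%, and the NRF1 core GCATGCGC in 8 (11.6%), against 4.11% and 3.05%. The CCAAT box was found in 39.1% of members, 42.1% of protein-coding genes and 41.1% of all symbols. For the GC box GGGCGG these shares were 49.3%, 51% and 38.2%, and for TATAAA 7.25%, 14.3% and 15.7%. GABPA, NRF1 and YY1 are known as regulators of nuclear genes for mitochondria, and a match is a description of the letters only.

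**Figure D5:**
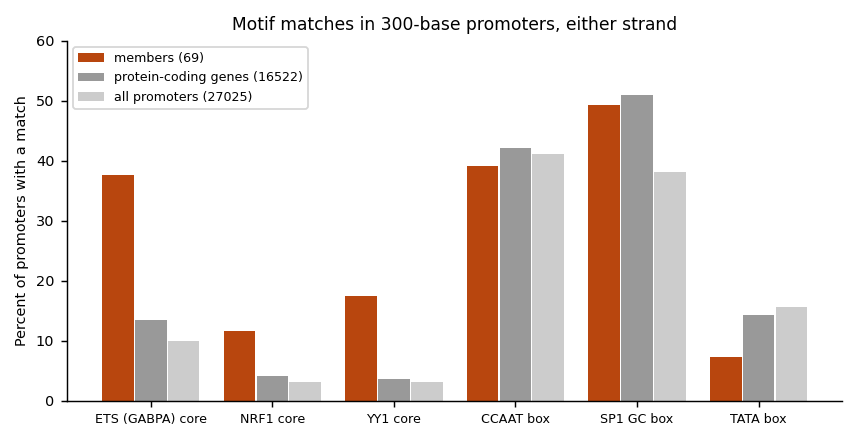
Percent of gene symbols with at least 1 match on either strand in any of their 300-base RefSeq promoters, for 69 members, 16522 protein-coding genes and all 27025 symbols. The ETS, NRF1 and YY1 cores are found in 37.7%, 11.6% and 17.4% of the members and in 9.93%, 3.05% and 3.19% of all symbols.

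Members with the same core were found above and below 0. Of the 26 with the ETS core, 18 of those tested stood above 0 and 7 below from D20 to D30, with a median of 0.11 against -0.09 for members without it, and the 2 that passed the test, Mrpl34 and Mrps33, fell. Of the members called between D20 and D30, 11 had a matched promoter, and Mrpl15 and Mrpl54 had none. Among these 11, the only one with the NRF1 core, Mrpl39, fell, and the only one with the YY1 core, Mrps11, rose. Their promoters and that of Mrpl49 are shown with the ETS, NRF1 and YY1 cores in capitals, because they carry the cores beside different courses of the gene. Mrpl34 is at chr8:71464676-71464975 (plus strand), Mrpl39 at chr16:84735195-84735494 (minus strand), Mrps11 at chr7:78782881-78783180 (plus strand) and Mrpl49 at chr19:6057706-6058005 (minus strand), each printed 5′ to 3′ on the strand of the gene. The windows follow the RefSeq starts: that of Mrpl39 lies inside the gene as GENCODE draws it, and the YY1 core of Mrpl49 lies downstream of the start.
Mrpl34: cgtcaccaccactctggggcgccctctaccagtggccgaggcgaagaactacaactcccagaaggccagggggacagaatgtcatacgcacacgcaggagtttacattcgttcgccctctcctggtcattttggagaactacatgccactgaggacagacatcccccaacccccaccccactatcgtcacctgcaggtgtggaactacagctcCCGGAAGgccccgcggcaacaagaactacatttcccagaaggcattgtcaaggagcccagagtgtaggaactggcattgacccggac
Mrpl39: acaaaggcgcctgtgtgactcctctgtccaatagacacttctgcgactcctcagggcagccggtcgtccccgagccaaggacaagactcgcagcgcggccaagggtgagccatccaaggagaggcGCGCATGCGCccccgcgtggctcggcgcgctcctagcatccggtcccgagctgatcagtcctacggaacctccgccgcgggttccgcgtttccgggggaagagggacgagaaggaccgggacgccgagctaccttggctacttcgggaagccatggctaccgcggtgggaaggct
Mrps11: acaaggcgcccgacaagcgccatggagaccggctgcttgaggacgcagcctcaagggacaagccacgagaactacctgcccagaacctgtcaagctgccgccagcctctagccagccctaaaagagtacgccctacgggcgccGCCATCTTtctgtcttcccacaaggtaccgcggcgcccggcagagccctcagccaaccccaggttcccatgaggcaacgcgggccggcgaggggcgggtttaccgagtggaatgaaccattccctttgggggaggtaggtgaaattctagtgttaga
Mrpl49: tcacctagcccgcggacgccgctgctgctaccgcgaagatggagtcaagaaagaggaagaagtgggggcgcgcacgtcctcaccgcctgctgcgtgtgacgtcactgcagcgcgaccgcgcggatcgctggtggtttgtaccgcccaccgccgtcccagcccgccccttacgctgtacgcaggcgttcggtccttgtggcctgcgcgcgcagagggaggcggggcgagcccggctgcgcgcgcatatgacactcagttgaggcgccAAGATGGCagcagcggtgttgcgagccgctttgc

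Many members start back to back with another gene. A protein-coding neighbour on the other strand that starts upstream within 1000 bases, with no overlap of the genes at their starts, was annotated for 18 of 78 members (23.1%) and for 6.78% of protein-coding genes. Mrpl49 starts 59 bases from Fau, which encodes a protein of the cytosolic small subunit. From D20 to D30 Fau fell by 1.57 on the log2 scale (adjusted p = 8.81e-09), and Mrpl49 differed by 0.07 (interval -0.19 to 0.32). Among the other neighbours, Lrrc46 beside Mrpl10 (2.34, adjusted p = 8.14e-05), Klc4 beside Mrpl2 (0.43) and Ptcd2 beside Mrps27 (0.43) rose, and Ncapd2 and Zfp189 fell. None of Mrpl10, Mrpl2 and Mrps27 passed the test. The starts of Mrpl51, a large-subunit protein, and Ncapd2, a condensin subunit, are 100 bases apart. Ncapd2 fell by 0.88 (adjusted p = 4.88e-05), and Mrpl51 differed by 0.21 (adjusted p = 0.0888).

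Of the 13 called members, 3 had such a neighbour, not counting Mrps11, whose start overlaps Mrpl46. Mrpl50 fell together with Zfp189, a zinc finger gene that starts 83 bases away (-0.93, adjusted p = 1.42e-06). Mrpl54 rose while Apba3, 26 bases away, did not pass the test (-0.23, adjusted p = 0.347), and Mrps5 fell while Zfp661, 128 bases away, did not pass either (-0.18, adjusted p = 0.296). These pairs were named after their values had been seen.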

How the data were processed

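The deposited values are raw counts: the authors trimmed reads with cutadapt (1.5), aligned them with HISAT2 to GRCm38/mm10, assembled further loci with StringTie (1.3.3) and counted reads per feature with HTSeq (0.6.1), per the study's methods and processing notes. RNA was depleted of ribosomal RNA before strand-specific library preparation. Organoids were grouped by the sample titles. Symbols and coordinates came from GENCODE vM21.

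Features with a mean of at least 10 normalised counts were kept (46949, of which 16253 were annotated genes). Counts were scaled with TMM and tested with edgeR (4.0.16) in R (4.3.3), in 1 fit of all 24 organoids without covariates, with Benjamini-Hochberg adjustment over all kept features and a threshold of 0.01. The common biological coefficient of variation was 0.385. Standard errors were derived from the test statistic. Scripts were tested on simulated counts. DESeq2 (1.42.0), its size factors, other filters, the replicate number as a block, a fit of annotated genes alone, fits limited to the timepoints in a comparison and the omission of each organoid were alternatives. Levels per kb divide by the union of annotated exons.

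The members, role groups and lists were chosen with earlier results of these data known. By rule, the text names members among those past the threshold with a mean of at least 100 normalised counts (the 6 largest rises and falls from D20 to D30, the 3 largest of each step), the 3 highest and 3 lowest per kb, members not tested, members with extra roles, and the largest rise and fall of each list. Mrpl27, Mrpl50, Mrps9 and the further list genes lie outside it and were named after their values were seen, and Mrpl2, Mrpl10, Mrpl46, Mrpl51 and Mrps27 are named only as neighbours. Replicate numbers did not pair organoids. Reads mapping to several places were not counted.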

Additional observations from a re-analysis of the deposited data

Results flagged for a closer look

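Among 112 sets of 6 organoids (each named member and the summed level at each timepoint), 8 held an organoid that lay apart from the other 5 by Dixon's criterion, where chance alone flags about 1 in 20. Mrpl34 had 19.4 normalised CPM in D20 organoid 2, against 13 to 15.2 in the others. Mrpl39 had 73 in D22 organoid 1, against 91.1 to 98.3. Mrpl45 had 41.6 in D30 organoid 4, against 28.3 to 32.3. Mrps18c had 17.8 in D25 organoid 3, against 11.1 to 13.4, and Mrps21 had 27.8 in D20 organoid 4, against 32.1 to 34.6. Mrps30 had 42.4 in D25 organoid 1, against 50.1 to 54.7, and Mrps33 had 26.1 in D22 organoid 6, against 11.7 to 17. The summed level of the members was 2440 normalised CPM in D20 organoid 2, against 2100 to 2220 in the others. Among these sets, no organoid other than D20 organoid 2 was set apart more than once. The other members and the cytosolic sum were outside these sets. D22 organoid 6 had a cytosolic sum of 30310 normalised CPM, against 15980 to 21530 in the other D22 organoids.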

How the results depend on the processing

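The cause of each change listed here was not tested. Members higher from D20 to D30 numbered 4, and 9 with DESeq2 and with DESeq2's size factors in edgeR (4 to 7 when an organoid was left out). Members lower numbered 9, and 14 with annotated genes only, which moved the median member from 0.02 to -0.07. With annotated genes only, 1 member was lower at D25 than at D22 and 3 at D30 than at D25. The joint test called 13 members, 8 without a filter on low counts, 18 with DESeq2, 17 with annotated genes only and 8 to 14 without single organoids. Mrps25 was the 1 member higher from D25 to D30, and 0 were called without a filter, with filterByExpr, with annotated genes only, with the replicate block and with the compared timepoints only (0 to 1 without single organoids). Beyond that, the replicate block (no pairing by design: same-numbered organoids had a mean correlation of 0.013 in their deviations, and 6 of 24 organoids correlated best with their own number) gave 4 higher, 8 lower and 11 in the joint test. Differences near 0 turned sign: with annotated genes only, Mrpl49 was -0.015 and Mrps36 -0.0287, and Mrpl58 was 0.035 with DESeq2 and 0.0351 with its size factors. Without single organoids Mrpl49 ranged from -0.0212 to 0.137, Mrps36 from -0.034 to 0.176 and Mrpl58 from -0.073 to 0.016.

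Of the called members, Mrpl50, Mrps9, Mrps30 and Mrps33 lost the D20 to D30 call in at least 1 of 31 alternatives and 9 in none. In the lists, 0 synthetases fell under 3 settings (DESeq2's size factors, no filter, compared timepoints only) and without any of 7 organoids (D20 organoids 1, 3, 4 and 6, D30 organoids 1, 2 and 6), and 2 with annotated genes only. The assembly factors that fell numbered 1 with DESeq2's size factors, without a filter and without any of 6 organoids (D20 organoids 1 and 2, D30 organoids 2, 3, 4 and 6), and 4 with annotated genes only. The translation factors that fell numbered 2 without D20 organoid 6 or D30 organoid 3 and 3 with annotated genes only, and 4 rose with DESeq2. Of the ribosomal proteins with other symbols, 2 fell with annotated genes only. At this depth, the interval of 46 of the 64 members not called stayed within 1.5-fold of no change, and no statement on such small changes is made for the rest.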
